A study of Homo sapiens with 22 samples.

Results

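The genes described here are the subunits of the proteasome and the factors that assemble it. Members were all gene symbols that begin with PSMA, PSMB, PSMC, PSMD, PSME, PSMF or PSMG followed by digits alone. This rule, which used no measured value, found 47 of the 20668 gene symbols. They comprised 7 alpha-ring and 7 beta-ring subunits of the 20S core, 3 immunoproteasome subunits, the thymus form PSMB11, 6 ATPases and 11 non-ATPase subunits of the 19S cap, 3 chaperones of cap assembly, 4 chaperones of core assembly, 4 alternative activators and the regulator PSMF1. The testis form PSMA8 was not analysed here.

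RNA-seq of MDA-MB-231 cells, a line of triple-negative breast cancer (TNBC), gave 10 samples in 5 groups of 2 biological replicates. Cells had been kept for 3 days in phenol red-free medium with charcoal-stripped serum, which removes steroid hormones. They were then given vehicle, 100 nM dexamethasone (Dex) for 2 h, Dex for 4 h, 10 μM Compound A (CpdA) for 2 h, or CpdA for 4 h. Dex is a synthetic glucocorticoid that activates the glucocorticoid receptor (GR), and CpdA is a non-steroidal ligand of GR. No label states how long vehicle was applied, while the column headers name vehicle replicate 1 for 2 h and replicate 2 for 4 h, so that time and replicate cannot be told apart in vehicle. The same 2 vehicle samples were the reference for every treatment, so the 4 comparisons with vehicle are not independent of each other. The doses of the 2 ligands differed. All groups came from 1 cell line, and in bulk RNA the share of cells that carry a transcript and its amount per cell cannot be told apart.

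The proteasome degrades proteins that carry ubiquitin chains. Its barrel-shaped 20S core has alpha rings that gate the entrance and beta rings whose catalytic subunits cut the substrate, and the 19S cap binds ubiquitin, removes it, unfolds the protein with a ring of ATPases and feeds it into the core. Interferon induces alternative catalytic subunits, which replace the constitutive ones to form the immunoproteasome, and the PA28 activator, both of which shape the peptides shown on MHC class I. Dedicated chaperones build core and cap, and the transcription factor NFE2L1 is known to raise proteasome genes when proteasome activity is limiting.

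The deposited values were RPKM, read numbers scaled to the length of the transcript and to all mapped reads of the sample. A gene was tested if it reached 0.5 RPKM in at least 2 samples, which 12713 genes and 46 of the 47 proteasome genes did. The relative depth of the samples ranged from 1.0 to 1.212 and was lowest in both vehicle samples. The sum of RPKM over all genes was 323419 in Dex 4 h replicate 1 and between 307134 and 315488 in the other 9 samples. Of the markers of the cell line, VIM (1267 to 1464 RPKM), CD44 (120 to 182 RPKM) and EGFR (26.7 to 47.9 RPKM) were high, and ESR1 and PGR stayed at or below 0.00484 RPKM. SPARC, listed as a marker of the line, was at only 0.149 to 0.273 RPKM, while ERBB2 (15.9 to 21.6 RPKM) and EPCAM (8.02 to 10.6 RPKM) were measurable and CDH1 was at 0.226 to 0.465 RPKM. The leukocyte marker PTPRC and the endothelial marker PECAM1 stayed at or below 0.063 and 0.324 RPKM.

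The replicates of a group differed across the proteasome genes as a whole. Replicate 1 lay above replicate 2 for 40 of the 46 tested members at Dex 2 h, 40 at Dex 4 h, 37 at CpdA 2 h and 32 at CpdA 4 h, but for only 6 in vehicle. Over all genes tested, replicate 1 was the higher one for between 49.5% and 53.0% of genes. The gap was widest at Dex 4 h, where the median log2 difference between the replicates was 0.11 over the members and 0.01 over all genes. These offsets are of the same order as most differences between groups given here. Each result for the members was also fitted with the replicate number as a block and with each library left out in turn. For partner genes this was done only for calls against vehicle and for the difference between changes over time.

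The core subunits differed widely in level, and 3 of them were the highest of all members. PSMA7, an alpha-ring subunit, came first, with 229 to 270.2 RPKM over the 10 samples. PSMB4 (199 to 227 RPKM) and PSMB1 (182 to 214 RPKM), noncatalytic beta-ring subunits, came next, with ranges that overlapped each other. PSMB2, another noncatalytic beta subunit, was the lowest of the core at 30.2 to 33.8 RPKM, so that means ran from 31.8 to 245.5 RPKM among genes whose products enter the core in equal numbers. The 3 catalytic subunits lay between these limits. PSMB5, which carries the chymotrypsin-like site, was measured at 84.6 and 87.3 RPKM in the vehicle samples. PSMB6, with the caspase-like site, was at 118 and 114 RPKM, and PSMB7, with the trypsin-like site, was at 129 and 136 RPKM.

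**Figure D1:**
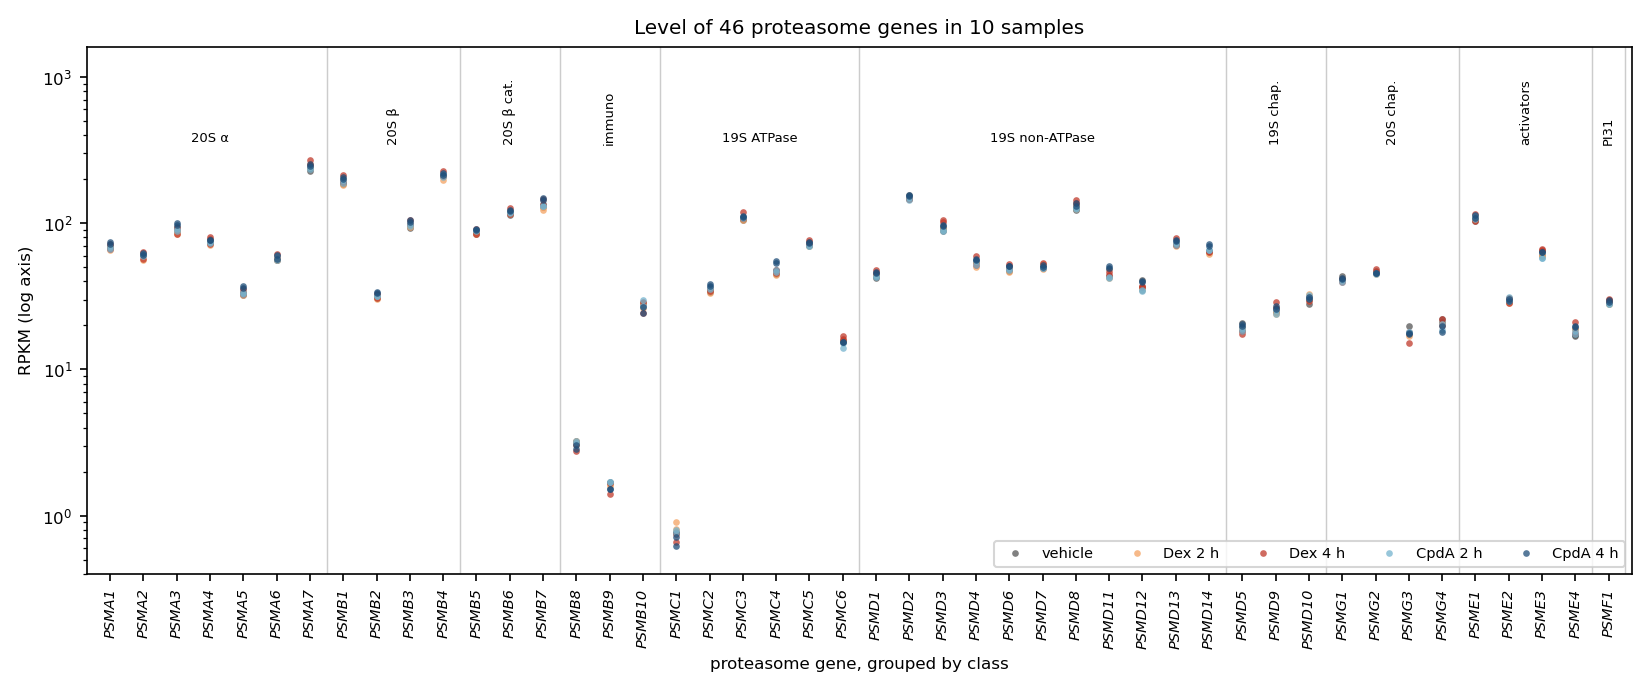
RPKM of the 46 proteasome genes that passed the filter (log axis), grouped by class, with 1 point for each of the 10 samples coloured by group. Points of a gene nearly coincide for most genes, whereas genes differ from PSMC1 at 0.617 to 0.904 RPKM to PSMA7 at 229 to 270.2 RPKM.

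In the 19S cap, mean levels ran from 15.6 RPKM for PSMC6 to 149 RPKM for PSMD2, a large scaffold subunit of the cap, apart from PSMC1. PSMC1, an ATPase of the same ring, was at 0.617 to 0.904 RPKM, while the other 5 ATPases had means of 15.6 to 109 RPKM. GENCODE names 13 pseudogenes after PSMC1, more than after any other member, and how the authors' counting treated reads that fit several copies is not given in the sources used here, so the level of PSMC1 is uncertain. The core chaperones PSMG3 and PSMG4 (means of 17.6 and 20.3 RPKM) were lower than PSMG1 and PSMG2 (41.3 and 46 RPKM), which form the other chaperone pair. The cap chaperones PSMD5, PSMD9 and PSMD10 had means of 19, 25.7 and 30.7 RPKM. PSMF1, the regulator also called PI31, averaged 28.8 RPKM.

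The inducible subunits were far lower than the constitutive subunits whose places they take. PSMB8 was at 3.18% to 3.82% of PSMB5, and PSMB9 at 1.2% to 1.48% of PSMB6, in all 10 samples. PSMB10 was less depleted, at 16.9% to 22.8% of PSMB7. PSMB8 and PSMB9 lie next to each other on chromosome 6 on opposite strands, with annotations that overlap at one end, an antisense gene, PSMB8-AS1, starts beside PSMB8, and strand use in the counting is not given in the sources used here. PSMB11, the thymus-specific catalytic subunit, was listed at 0 in 8 samples and at 0.0453 and 0.00909 RPKM in the others. Of the activators, PSME2, the beta subunit of PA28, was at 26.0% to 29.8% of its partner PSME1, although GENCODE names 6 pseudogenes after PSME2 and none after PSME1.

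The promoters of the genes that passed the test at 4 h and of the inducible subunits are shown so that the sequence at their start sites can be compared. RefSeq promoter windows (GRCh38.p14, 250 bases before to 50 after the start) were matched for 41 of the 47 members, and PSMA7, PSMB1, PSMB6, PSMB7, PSMD4 and PSMG3 had no entry. Stretches from 150 bases before to 30 bases after the start are printed for PSMC4 (chr19:39971015-39971194, plus strand), PSMD14 (chr2:161308275-161308454, plus strand), PSMD3 (chr17:39980657-39980836, plus strand), PSMD8 (chr19:38374421-38374600, plus strand), PSMD5 (chr9:120842893-120843072, minus strand), PSMB8 (chr6:32844018-32844197, minus strand, one of its 2 windows), PSMB9 (chr6:32854042-32854221, plus strand) and PSMB10 (chr16:67936821-67937000, minus strand). Of the 2 windows of PSMB8, the one with more motif matches in the printed stretch was taken. Each stretch is written 5′ to 3′ on the strand of the gene, and capitals mark every match, on either strand, to the motifs searched. Positions give the first base of a match, counted from the start site as 1 with −1 just before it.
PSMC4: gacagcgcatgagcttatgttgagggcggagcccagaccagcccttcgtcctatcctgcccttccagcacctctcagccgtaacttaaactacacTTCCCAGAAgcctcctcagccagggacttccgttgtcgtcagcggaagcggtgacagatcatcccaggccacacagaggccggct
PSMD14: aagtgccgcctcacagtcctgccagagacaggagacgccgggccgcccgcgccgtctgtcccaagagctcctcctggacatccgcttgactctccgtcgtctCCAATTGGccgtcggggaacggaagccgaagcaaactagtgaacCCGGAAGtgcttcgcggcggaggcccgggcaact
PSMD3: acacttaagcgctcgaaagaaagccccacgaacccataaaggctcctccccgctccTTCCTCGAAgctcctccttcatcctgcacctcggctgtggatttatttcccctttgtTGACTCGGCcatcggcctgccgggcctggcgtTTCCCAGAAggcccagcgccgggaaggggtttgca
PSMD8: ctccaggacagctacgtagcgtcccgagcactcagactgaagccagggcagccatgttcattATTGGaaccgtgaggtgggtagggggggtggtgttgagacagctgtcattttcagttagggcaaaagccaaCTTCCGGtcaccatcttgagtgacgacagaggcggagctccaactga
PSMD5: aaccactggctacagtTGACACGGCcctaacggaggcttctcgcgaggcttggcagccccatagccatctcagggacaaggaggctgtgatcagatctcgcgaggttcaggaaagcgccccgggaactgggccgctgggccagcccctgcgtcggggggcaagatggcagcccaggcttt
PSMB8: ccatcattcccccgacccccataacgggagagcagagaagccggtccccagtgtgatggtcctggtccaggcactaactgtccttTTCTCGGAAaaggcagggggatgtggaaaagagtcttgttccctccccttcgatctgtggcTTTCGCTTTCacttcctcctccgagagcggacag
PSMB9: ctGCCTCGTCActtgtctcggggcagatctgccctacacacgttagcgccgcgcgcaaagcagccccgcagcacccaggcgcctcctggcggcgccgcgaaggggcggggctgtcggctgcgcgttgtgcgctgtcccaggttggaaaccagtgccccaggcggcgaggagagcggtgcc
PSMB10: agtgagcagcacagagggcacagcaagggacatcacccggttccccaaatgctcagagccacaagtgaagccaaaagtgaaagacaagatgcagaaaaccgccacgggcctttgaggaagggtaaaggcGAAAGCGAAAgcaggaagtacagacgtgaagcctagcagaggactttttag

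The capitals are, in order, a gamma-activated site (TTCNNNGAA, where N is any base) at −55 in PSMC4, overlapping CCAAT boxes at −48 and −45 and an ETS site (CCGGAAG) at −4 in PSMD14, and a gamma-activated site at −94, an antioxidant response element (TGACNNNGC) at −37 and a gamma-activated site at −5 in PSMD3. In PSMD8 they are a CCAAT box at −88 and an ETS site at −17, and in PSMD5 an antioxidant response element at −134. In PSMB8 they are a gamma-activated site at −65 and an interferon response element (GAAA, any 2 bases, GAAA) at −4, in PSMB9 an antioxidant response element at −148, and in PSMB10 an interferon response element at −21. The motif set is thus not shared by all of the genes that passed the test. Outside the printed stretch, the antioxidant response element also matched at 28 in PSMC4 and at 34 in PSMD3, and the CCAAT box at −217 in PSMD3 and at −243 in PSMB9.

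Over the 41 members matched, 8 of them with several windows, the antioxidant response element, which NFE2L1 and NFE2L2 are known to bind, was found in 15 members (36.6%) against 16.1% of the 27305 symbols with a window. The ETS site was found in 14 members (34.1% against 12.2% of all symbols) and the CCAAT box in 20 members (48.8% against 39.7%). The interferon response element occurred in 7 members (17.1% against 4.38%), which were PSMA4, PSMB4, PSMB8, PSMB10, PSME1, PSME2 and PSMG4 but not the inducible PSMB9, and the gamma-activated site in 7 members (17.1% against 9.38%). The glucocorticoid response element (GNACA, any 3 bases, TGTNC) was in 0 of the 41 members and in 0.480% of all, and the heat shock element (GAA, TTC and GAA with any 2 bases between each) in 0 of the 41 and in 0.608% of all. All motifs were searched on both strands, and a match or its absence in so short a window is a description only.

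Across the 5 groups the proteasome genes varied little. The range of the 5 group means had a median of 0.12 on the log2 scale over the 46 members. It was 0.28 over all genes tested and 0.19 over the 4376 genes with a mean of at least 15 RPKM, the level that 43 members reached. Group means differed by more than 1.2-fold for 2 members (4.35%), PSMC4 and the weakly measured PSMC1, and for 53.6% of all genes tested. At 15 RPKM and above this held for 1 of 43 members and for 33.5% of genes. CpdA 4 h was the highest group for 23 members (50% against 23.8% of all genes) and Dex 4 h for 14 (30.4% against 21.5%). Dex 2 h was the lowest group for 19 members and vehicle for 12, and these were the lowest for 15.1% and 10.7% of all genes. No member passed the test with a fold change above 1.2 in any comparison, a combination met by 8.61% and 20.9% of all genes for Dex at 2 h and 4 h and by 4.93% and 13.9% for CpdA.

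At 2 h neither ligand changed a proteasome gene by the test. Each treatment was compared with vehicle in a limma model of log2(RPKM + 0.1) over the 5 groups, with Benjamini-Hochberg adjustment over all 12713 genes and a threshold of 0.05. For Dex at 2 h, 0 members rose and 0 fell, against 4.49% and 5.82% of all genes, and by unadjusted limma p below 0.05 there were 0 higher (7.94% of all genes) and 2 lower (13.8%), PSMD5 and PSMD12. For CpdA at 2 h, 0 rose and 0 fell, against 1.89% and 4.29% of all genes, and by unadjusted limma p below 0.05 there were 0 higher (6.09% of all genes) and 2 lower (14.2%), PSMD12 and PSME3. The 95% intervals of the 14 core subunits allowed changes between −13.5% and 14.8% with Dex and between −10.4% and 14.8% with CpdA, so larger changes of a core subunit at 2 h lie outside them. Without vehicle replicate 1, 2 members fell with Dex (PSMD11 and PSMD12) and 2 with CpdA (PSMD12 and PSME3), when 6.82% and 5.79% of all genes fell.

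At 4 h Dex raised 3 subunits and lowered 1 assembly chaperone, each by less than 1.2-fold. The 3 that rose were 6.52% of the members, against 9.26% of all genes, and the 1 that fell was 2.17%, against 18.2% of all genes. PSMD3, a non-ATPase subunit of the cap lid, was at 88.5 and 92.5 RPKM in vehicle, 93.7 and 90.4 after 2 h of Dex, 105 and 101 after 4 h of Dex, 89.6 and 87.8 after 2 h of CpdA, and 97.1 and 96.3 after 4 h of CpdA. Both Dex 4 h samples were the highest of the 10. PSMD3 rose by 0.19 ± 0.04 (log2, SE, n = 2 per group, limma adjusted p = 0.00758). PSMD8, another lid subunit, was at 123 and 126 RPKM in vehicle, 132 and 126 after 2 h of Dex, 145 and 137 after 4 h of Dex, 127 and 124 after 2 h of CpdA, and 136 and 131 after 4 h of CpdA. Again both Dex 4 h samples were the highest, though only just above the nearest CpdA 4 h sample. PSMD8 rose by 0.18 ± 0.05 (log2, SE, n = 2 per group, limma adjusted p = 0.018).

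PSMA7, of the alpha ring, was at 229 and 237 RPKM in vehicle, 253 and 241 after 2 h of Dex, 270.2 and 250.003 after 4 h of Dex, 243 and 235 after 2 h of CpdA, and 254 and 244.5 after 4 h of CpdA. Dex 4 h did not overlap with vehicle but overlapped with Dex 2 h and CpdA 4 h. Its rise of 0.16 ± 0.05 passed narrowly (log2, SE, n = 2 per group, limma adjusted p = 0.0487). PSMD5, a chaperone of the cap base that is released from the finished proteasome, was at 19.4 and 20.7 RPKM in vehicle, 18.6 and 18.2 after 2 h of Dex, 17.4 and 18.4 after 4 h of Dex, 18.8 and 18.4 after 2 h of CpdA, and 19.9 and 20.5 after 4 h of CpdA. Both samples of Dex 2 h, Dex 4 h and CpdA 2 h lay below both vehicle samples, while those of CpdA 4 h overlapped with vehicle. PSMD5 fell by 0.16 ± 0.05 with Dex at 4 h (log2, SE, n = 2 per group, limma adjusted p = 0.0358).

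These calls depended on the samples. With only the 4 samples of the comparison fitted, 0 members passed, and the adjusted p of PSMD3 was 0.117. The number that rose was 9 without Dex 4 h replicate 2 (13.3% of all genes) and 1, PSMD3, without vehicle replicate 1 (7.7% of all genes). Scaling the samples to a common median gave 8 higher and 0 lower, with 12.6% of all genes in each direction, and the replicate block gave 6 higher, against 10.2% of all genes, and 1 lower. PSMA7 was not called without either vehicle replicate, without Dex 4 h replicate 1, with a pseudocount of 1 or without the filter on low values, PSMD8 was lost without vehicle replicate 1 or Dex 4 h replicate 1, and PSMD5 without vehicle replicate 2 or Dex 4 h replicate 1 and under quantile normalisation. The median log2 difference from vehicle was 0.03 over the 46 members and −0.05 over all genes, and 12 members against 18.5% of all genes had both Dex samples above both vehicle samples (26.1% of members). Both lay below vehicle for 4 members (8.7%), against 36.6% of all genes.

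**Figure D2:**
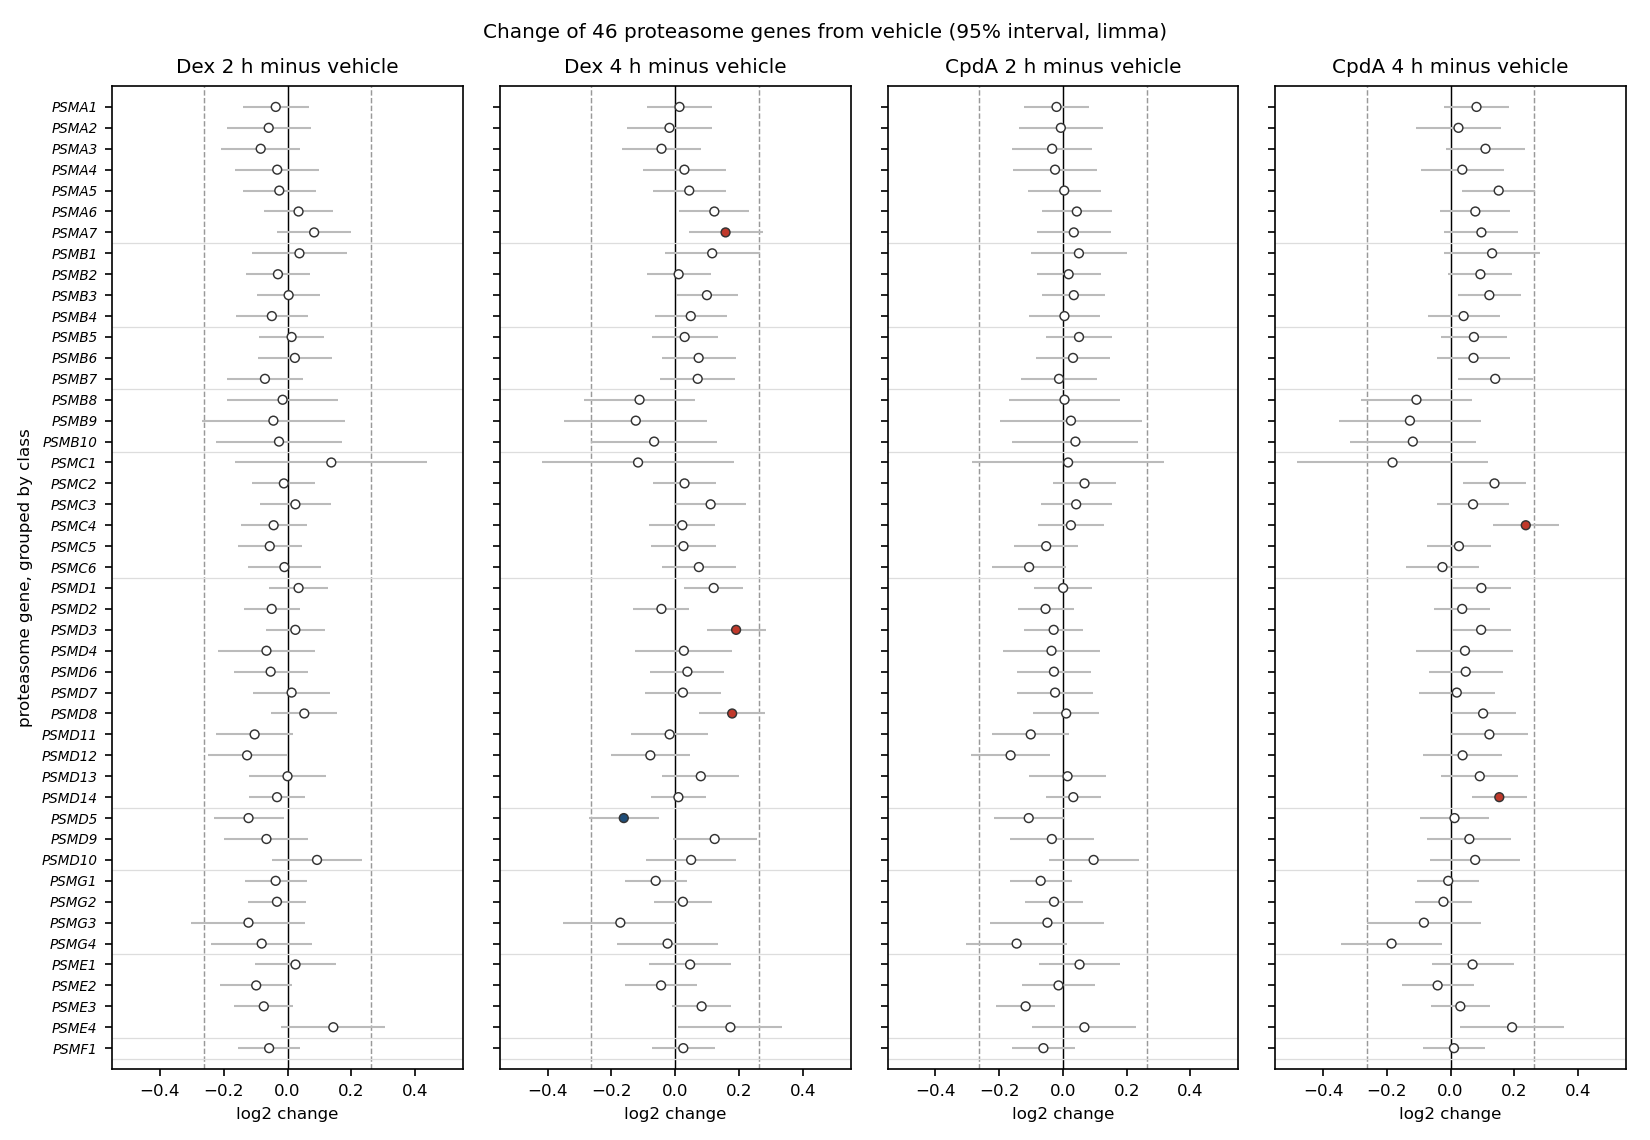
Log2 difference from vehicle of the 46 tested proteasome genes for each treatment, with 95% limma intervals (grey bars), dashed lines at a fold change of 1.2, and filled points for genes past the test (red higher, blue lower). Filled points occur only in the 4 h panels (4 with Dex and 2 with CpdA) and all lie inside the dashed lines.

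At 4 h CpdA raised 2 subunits of the cap and lowered none by the test. The 2 were 4.35% of members against 6.76% of all genes, and the 0 that fell compare with 13.8% of all genes. By unadjusted p below 0.05, limma gave 10 higher (11.5% of all genes) and 1 lower (21.8%). PSMC4, an ATPase of the cap ring, was at 44.7 and 47.5 RPKM in vehicle, 44.1 and 45.3 after 2 h of Dex, 48.1 and 45.5 after 4 h of Dex, 47.6 and 46.1 after 2 h of CpdA, and 54.7 and 53.8 after 4 h of CpdA. Both CpdA 4 h samples stood above the other 8, with a wider gap than for any other member that passed. PSMC4 rose 1.18-fold, by 0.24 ± 0.05 (log2, SE, n = 2 per group, limma adjusted p = 0.00693). PSMD14, the deubiquitinase of the cap that removes ubiquitin chains from the substrate, was at 63.0 and 64.5 RPKM in vehicle, 63.6 and 61.1 after 2 h of Dex, 64.9 and 63.5 after 4 h of Dex, 65.1 and 65.3 after 2 h of CpdA, and 72.0 and 69.8 after 4 h of CpdA. Its CpdA 4 h samples were likewise the highest of the 10. PSMD14 rose by 0.15 ± 0.04 (log2, SE, n = 2 per group, limma adjusted p = 0.0222).

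All 14 core subunits had a log2 difference above 0 at CpdA 4 h, against 41.5% of all genes. Their median was 0.09, with 95% intervals reaching from −7.18% to 21.4%, and none passed. Over the 46 members the median was 0.06, against −0.04 over all genes. Samples did not overlap in 24 members with CpdA higher (52.2%, against 25.1% of all genes) and in 8 with CpdA lower (17.4%, against 39.5%). PSMC4 lost its call without CpdA 4 h replicate 1 (limma adjusted p = 0.0635), and PSMD14 without either CpdA 4 h replicate or vehicle replicate 1. Scaling to a common median gave 9 higher, among them PSMA5, PSMB3 and PSMB7 of the core, and 0 lower, against 10.9% and 8.64% of all genes. The replicate block gave 4 higher, against 7.61% of all genes.

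**Figure D3:**
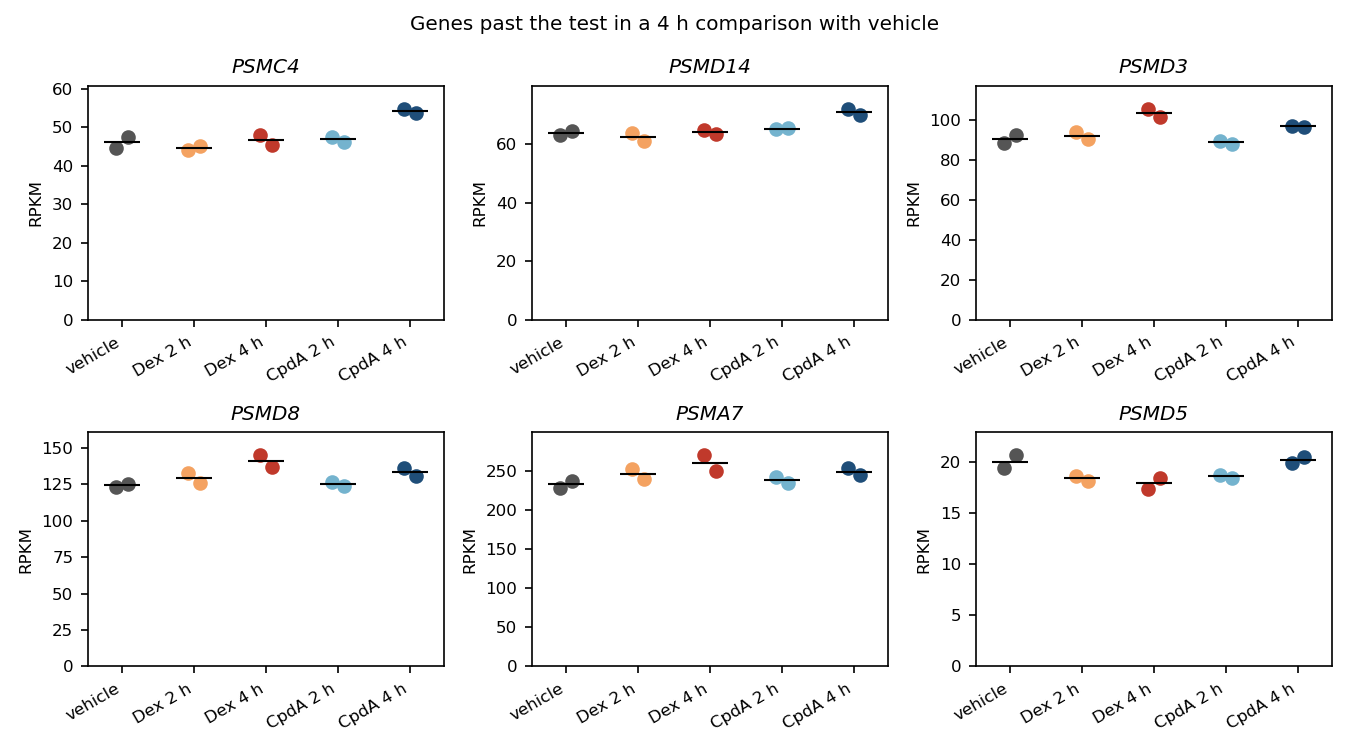
RPKM by sample (points, axis from 0) and group mean (lines, n = 2) of the 6 proteasome genes that passed the test at 4 h against vehicle. PSMC4 and PSMD14 were highest in both CpdA 4 h samples, PSMD3 and PSMD8 in both Dex 4 h samples, PSMA7 overlapped between treatments, and PSMD5 was lower in both Dex 4 h samples than in vehicle.

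The ligands were then compared directly. At 2 h, 0 members were higher and 0 lower with Dex than with CpdA, against 7.53% and 6.18% of all genes, and by unadjusted limma p below 0.05 there were also 0 higher and 0 lower, against 12.9% and 11.3%. At 4 h, 0 were higher with Dex (15.4% of all genes, and 2 members against 19.6% of all genes by unadjusted limma p) and 3 lower (6.52%, against 18% of all genes). PSMC4 was lower with Dex than with CpdA by 0.21 ± 0.05, PSMD14 by 0.14 ± 0.04 and PSMD5 by 0.17 ± 0.05 (log2, SE, limma adjusted p = 0.00621, 0.0188 and 0.0222). The genes that rose with Dex were not shown to differ between the ligands. PSMD3 was 6.82% higher with Dex (95% interval 0.187% to 13.9%, adjusted p = 0.107), PSMD8 5.45% (−1.86% to 13.3%, adjusted p = 0.239) and PSMA7 4.34% (−3.73% to 13.1%, adjusted p = 0.405). PSMC4, PSMD14 and PSMD5 lost their calls without CpdA 4 h replicate 1, where fewer of all genes passed too. PSMD14 and PSMD5 also lost theirs without CpdA 4 h replicate 2, and PSMD5 without Dex 4 h replicate 1. With only the 4 samples of the comparison fitted, PSMC4 alone kept its call, when 12.5% of all genes were lower.

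From 2 h to 4 h, PSME3 rose with both ligands, and the other calls were cap subunits. With Dex, PSMD3 and PSME3 rose (4.35% of members, against 4.55% of all genes) and 0 fell, against 9.02% of all genes, and by unadjusted limma p 0 fell against 18.9%. With CpdA, PSMC4, PSMD11, PSMD12 and PSME3 rose (8.7%, against 5.21%) and 0 fell, against 7.2%, and by unadjusted limma p 0 fell against 16%. PSMD11 and PSMD12 are lid subunits, the former clamping the cap to the core, and PSME3 forms the nuclear activator PA28γ. PSMD11 was at 42.5 and 43.1 RPKM after 2 h of CpdA and 50.7 and 49.2 after 4 h of CpdA, but vehicle, at 43.4 and 48.5, lay between these groups. PSMD12 was at 34.3 and 35.1 RPKM after 2 h of CpdA and 39.7 and 40.1 after 4 h of CpdA, where vehicle, at 36.7 and 41.2, overlapped with CpdA 4 h. PSME3 was at 57.3 and 57.9 RPKM after 2 h of CpdA, 63.7 and 64.0 after 4 h of CpdA, 59.2 and 59.5 after 2 h of Dex, and 65.9 and 66.4 after 4 h of Dex.

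PSME3 thus separated 2 h from 4 h with both ligands, while vehicle, at 60.3 and 64.7 RPKM, lay above both 2 h groups and overlapped with CpdA 4 h. It rose by 0.16 ± 0.04 with Dex and 0.15 ± 0.04 with CpdA (log2, SE, limma adjusted p = 0.0362 and 0.0471). PSMC4 rose by 0.21 ± 0.05, PSMD11 by 0.22 ± 0.05 and PSMD12 by 0.20 ± 0.05 with CpdA, and PSMD3 by 0.17 ± 0.04 with Dex (log2, SE, limma adjusted p = 0.0194, 0.0286, 0.0441 and 0.029). In all of these genes vehicle replicate 2, named for 4 h in the column headers, was also above replicate 1, named for 2 h. Replicate 1 was the higher vehicle sample for only 6 of the 46 members, against 50.8% of all genes. Whether these rises belong to the ligands or to time alone was not tested. Of the 14 core subunits 14 were above 0 with each ligand, against 43.6% of all genes with Dex and 46.6% with CpdA, but none passed. The core shifted by sample, with a median deviation (log2) of 0.09 in Dex 4 h replicate 1 and −0.04 in replicate 2. In CpdA 4 h it was 0.07 and 0.04. Samples did not overlap in 17 members with Dex 4 h higher (37%, against 20.3% of all genes) and in 33 with CpdA 4 h higher (71.7%, against 30.6%). The 4 h samples were both lower for 1 member with Dex (2.17%, against 32.8%) and for 5 with CpdA (10.9%, against 35.8%).

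Each of the 4 samples compared was also left out in turn, which leaves 1 sample in a group. The median log2 difference of the members then lay between 0.05 and 0.08 with CpdA and between 0.01 and 0.11 with Dex. The CpdA calls were not kept in such fits, where fewer of all genes passed too. The Dex calls were kept only without Dex 4 h replicate 2, where more of all genes passed. No member passed the test of whether the change from 2 h to 4 h differed between the ligands, against 6.6% of all genes, and by unadjusted limma p below 0.05 there were 0 positive (8.66%) and 1 negative (11.6%), PSMD5. Without Dex 4 h replicate 2, which leaves 1 sample in that group, the change of PSME4 was 0.22 (log2) lower with Dex than with CpdA. The median of this difference was then 0.06 over the members and −0.005 over all genes.

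**Figure D4:**
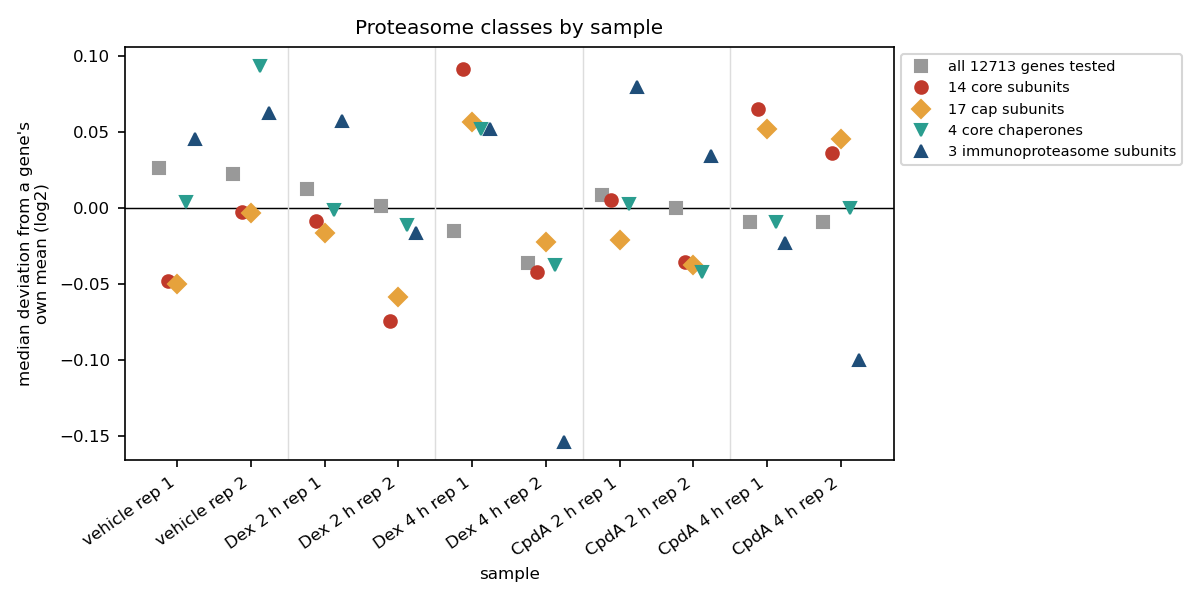
Median deviation of each class from its genes' own means over the 10 samples (log2), by sample, for 14 core and 17 cap subunits, 4 core chaperones, 3 immunoproteasome subunits and all 12713 genes tested. Core and cap move together and are high in both CpdA 4 h samples and in Dex 4 h replicate 1, but not in Dex 4 h replicate 2.

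The catalytic subunits of the core passed the test in no comparison. PSMB5 was at 84.6 and 87.3 RPKM in vehicle, 88.6 and 84.7 after 2 h of Dex, 91.0 and 84.5 after 4 h of Dex, 89.6 and 88.4 after 2 h of CpdA, and 90.6 and 90.1 after 4 h of CpdA. The Dex groups overlapped with vehicle, and the CpdA groups lay just above it. Its change at 4 h was 2.08% with Dex (95% interval −4.96% to 9.63%) and 5.19% with CpdA (−2.05% to 13%). PSMB6 was at 118 and 114 RPKM in vehicle, 121 and 115 after 2 h of Dex, 128 and 116 after 4 h of Dex, 120 and 117 after 2 h of CpdA, and 123 and 121 after 4 h of CpdA. Only the CpdA 4 h samples both exceeded vehicle. PSMB7 was at 129 and 136 RPKM in vehicle, 130 and 122 after 2 h of Dex, 145 and 133 after 4 h of Dex, 132 and 131 after 2 h of CpdA, and 148 and 144 after 4 h of CpdA. Both CpdA 4 h samples exceeded vehicle, and the difference did not pass (0.14 ± 0.05, log2, SE, limma adjusted p = 0.0941).

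The inducible subunits were below vehicle on average at 4 h, also without passing. PSMB8 was at 3.23 and 3.13 RPKM in vehicle, 3.25 and 3.04 after 2 h of Dex, 3.10 and 2.78 after 4 h of Dex, 3.23 and 3.16 after 2 h of CpdA, and 3.03 and 2.87 after 4 h of CpdA. PSMB9 was at 1.67 and 1.69 RPKM in vehicle, 1.65 and 1.60 after 2 h of Dex, 1.67 and 1.40 after 4 h of Dex, 1.71 and 1.71 after 2 h of CpdA, and 1.53 and 1.52 after 4 h of CpdA. PSMB10 was at 27.2 and 28.5 RPKM in vehicle, 28.3 and 26.4 after 2 h of Dex, 28.9 and 24.4 after 4 h of Dex, 30.1 and 27.2 after 2 h of CpdA, and 26.9 and 24.4 after 4 h of CpdA. For each of the 3, both CpdA 4 h samples lay below both vehicle samples, as for 39.5% of all genes. Both Dex 4 h samples did so for PSMB8, as for 36.6% of all genes, and overlapped with vehicle for PSMB9 and PSMB10. For each of the 3, the Dex 4 h replicates were further apart than those of CpdA 4 h. The log2 differences from vehicle lay between −0.12 and −0.07 with Dex at 4 h and between −0.13 and −0.11 with CpdA at 4 h, and the 95% intervals reached from −21.4% to 9.55% and from −21.6% to 6.90%.

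**Figure D5:**
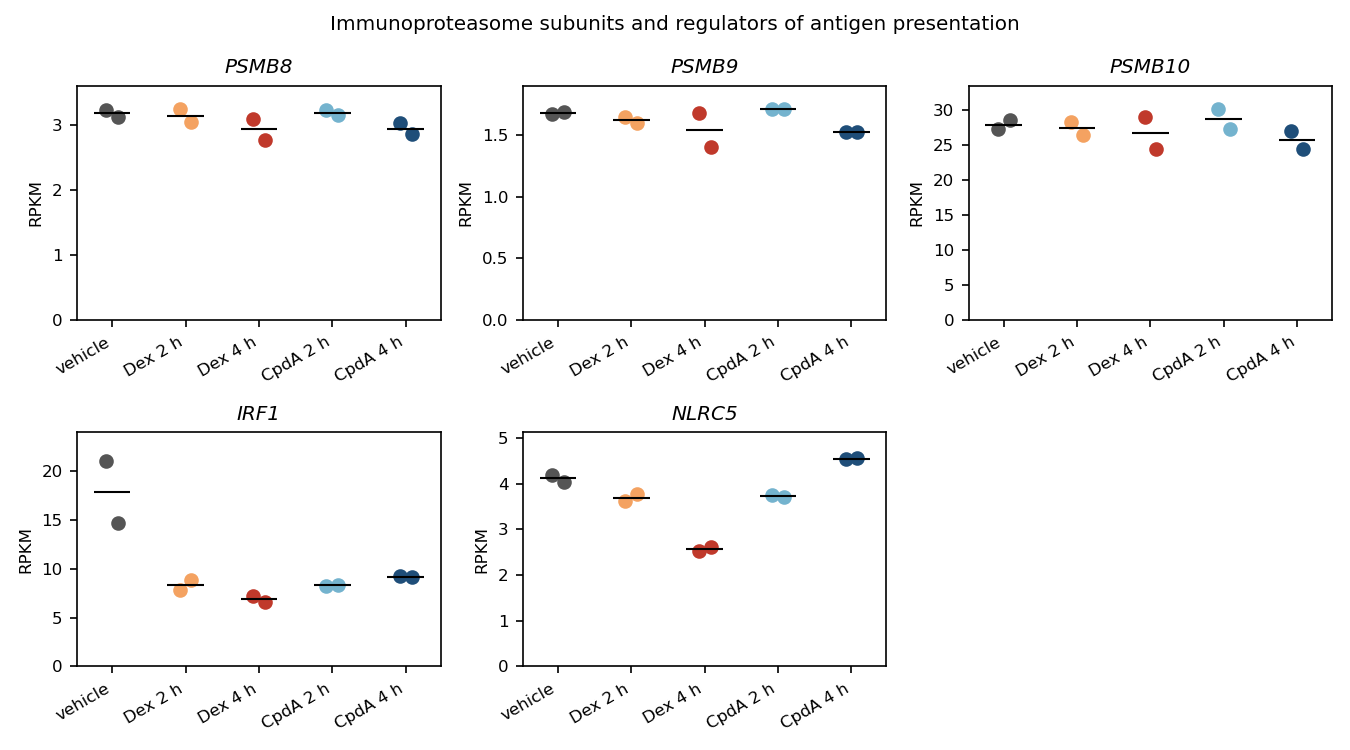
RPKM by sample (points, axis from 0) and group mean (lines, n = 2) of the 3 immunoproteasome subunits and of IRF1 and NLRC5, regulators of antigen presentation genes. The subunits stay close to vehicle in all groups, IRF1 is lower in all 8 treated samples, and NLRC5 is lower in both Dex 4 h samples at 2.53 and 2.60 RPKM.

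PA28 and the assembly factors showed no change past the test against vehicle except in PSMD5. PSME1 was at 107 and 104 RPKM in vehicle, 110 and 105 after 2 h of Dex, 115 and 103 after 4 h of Dex, 112 and 107 after 2 h of CpdA, and 113 and 109 after 4 h of CpdA. PSME2 was at 30.3 and 31.0 RPKM in vehicle, 28.7 and 28.5 after 2 h of Dex, 30.8 and 28.6 after 4 h of Dex, 31.4 and 29.3 after 2 h of CpdA, and 29.4 and 30.1 after 4 h of CpdA. For PSME1 both CpdA 4 h samples lay above vehicle, and for PSME2 both samples of Dex 2 h and of CpdA 4 h lay below it, while the other treated groups overlapped with vehicle. The nuclear activator PSME4, also called PA200, had a log2 difference of 0.19 ± 0.07 with CpdA at 4 h and 0.17 ± 0.07 with Dex at 4 h (limma adjusted p = 0.0944 and 0.111). All 4 core chaperones were below vehicle on average at Dex 2 h, CpdA 2 h and CpdA 4 h, where 43.6%, 44.8% and 41.5% of all genes were above it. Their median deviation (log2) was 0.09 in vehicle replicate 2 but 0.004 in vehicle replicate 1. In the samples of these treatments it lay between −0.04 and 0.003. PSMG4 had the largest difference, −0.19 ± 0.07 at CpdA 4 h (log2, SE, limma adjusted p = 0.0976). The cap chaperone PSMD9 was 0.19 ± 0.06 higher at Dex 4 h than at Dex 2 h (log2, SE, limma adjusted p = 0.0622).

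A list of 34 symbols around the proteasome, of which 32 were tested (for SHFM1 and KIAA0368 the newer symbol was listed as well), held assembly and cap-bound proteins, ubiquitin genes and shuttles, the NFE2L1 pathway and antigen processing. At 2 h, IRF1, a transcription factor of the interferon response, fell by 1.07 ± 0.14 with Dex and 1.08 ± 0.14 with CpdA (log2, SE, limma adjusted p = 0.000896 and 0.00238). ERAP2, a peptidase that trims MHC class I peptides, rose by 0.42 ± 0.10 with Dex at 2 h (limma adjusted p = 0.0292), a call lost in 5 of the alternative fits. At 4 h, 2 of the 32 rose and 5 fell with Dex, against 9.26% and 18.2% of all genes, and 5 rose and 3 fell with CpdA, against 6.76% and 13.8%. Reads of the ubiquitin genes can fit several copies, so their levels are uncertain.

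The partner genes that rose with CpdA at 4 h were AKIRIN2, TXNL1, PITHD1, VCP and UBQLN1. AKIRIN2, which carries proteasomes into the nucleus, was at 13.4 and 14.9 RPKM in vehicle, 14.7 and 14.2 after 4 h of Dex and 19.1 and 18.6 after 4 h of CpdA. It rose by 0.41 ± 0.06 with CpdA and was lower with Dex than with CpdA by 0.38 ± 0.06 (log2, SE, limma adjusted p = 0.00122 and 0.000779). PITHD1, a protein related to the proteasome-bound TXNL1, was at 25.03 and 26.04 RPKM in vehicle, 24.9 and 22.6 after 4 h of Dex and 31.7 and 32.7 after 4 h of CpdA. It rose by 0.33 ± 0.06 (limma adjusted p = 0.00577), and TXNL1 by 0.14 ± 0.04 (limma adjusted p = 0.0477). VCP, the ATPase that extracts ubiquitylated proteins from membranes and complexes, rose by 0.21 ± 0.04 with CpdA at 4 h, and the ubiquitin shuttle UBQLN1 by 0.19 ± 0.04, whereas the shuttle UBQLN2 fell by 0.23 ± 0.06 (log2, SE, limma adjusted p = 0.00391, 0.0181 and 0.0191). All of these calls against vehicle except that of AKIRIN2 were lost in at least 1 alternative fit. The difference of AKIRIN2 between the ligands was not refitted.

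With Dex at 4 h, the ubiquitin receptor ADRM1 rose by 0.21 ± 0.06 and RPS27A, which encodes ubiquitin fused to a ribosomal protein, by 0.22 ± 0.06, while the cap-bound deubiquitinase UCHL5 fell by 0.19 ± 0.06 (log2, SE, limma adjusted p = 0.022, 0.0156 and 0.0314). DDI2, the protease that activates NFE2L1, fell by 0.52 ± 0.17 (limma adjusted p = 0.047), with 3.14 and 3.16 RPKM in vehicle and 1.74 and 2.71 after 4 h of Dex. With CpdA its log2 difference from vehicle was −0.66 ± 0.17 at 2 h and −0.43 ± 0.17 at 4 h, without passing (limma adjusted p = 0.0523 and 0.102). DDI2 was not shown to differ between the ligands at 4 h (limma adjusted p = 0.749). NFE2L1 itself was at 74.7 to 82.2 RPKM in all 10 samples and did not pass against vehicle with either ligand. NFE2L2, the antioxidant response factor, was at 68.3 and 49.8 RPKM in vehicle, 49.5 and 48.6 after 2 h of Dex, 39.4 and 41.2 after 4 h of Dex, 71.3 and 70.2 after 2 h of CpdA, and 69.0 and 68.8 after 4 h of CpdA. Vehicle replicate 1 was near the CpdA samples and replicate 2 near those of Dex 2 h. NFE2L2 fell by 0.53 ± 0.11 with Dex at 4 h and was 0.77 ± 0.11 lower with Dex than with CpdA (log2, SE, limma adjusted p = 0.00741 and 0.000731).

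Of the regulators of antigen presentation, IRF1 fell with both ligands at 4 h, and NLRC5 fell with Dex. IRF1 was at 21.1 and 14.7 RPKM in vehicle and at 6.63 to 9.26 RPKM in the 8 treated samples, and fell by 1.33 ± 0.14 with Dex and 0.93 ± 0.14 with CpdA at 4 h (log2, SE, limma adjusted p = 0.000102 and 0.00176). NLRC5, the transactivator of MHC class I genes, was at 4.19 and 4.04 RPKM in vehicle, 2.53 and 2.60 after 4 h of Dex and 4.54 and 4.55 after 4 h of CpdA. It fell by 0.66 ± 0.06 with Dex (limma adjusted p = 4.46e-05). TAPBP, which helps load MHC class I, fell by 0.29 ± 0.06 with CpdA at 4 h (limma adjusted p = 0.00779). TAP1, TAP2, B2M and ERAP1, also of the class I pathway, did not pass in any comparison with vehicle.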

How the data were processed

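RNA-seq of 10 samples of MDA-MB-231 was used. The chromatin samples of the series were not analysed here. Single-end reads were aligned by the authors with TopHat 2.0.13, who estimated abundances in Partek 6.6, and deposited RPKM for each gene symbol. The values were not whole multiples of a read, so no count test was run, and read totals and therefore counting intervals are not given in the sources used here. The treatment of multiply mapped reads and of strand is not given there either. RPKM values were taken as log2(RPKM + 0.1), which understates changes of low genes, and genes with at least 0.5 RPKM in at least 2 samples were fitted in limma 3.58.1 (R 4.3.3; 5 groups, abundance trend, no scaling between samples), with Benjamini-Hochberg adjustment over all 12713 genes and no fold threshold.

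An exact permutation test between 2 groups of 2 samples cannot reach 0.05, so each test rests on the spread that limma pools over the 5 groups. A share called is the share of all genes that passed in that direction. Values in every sample were given for the catalytic and inducible subunits, PSME1, PSME2 and the members that passed against vehicle (at most 5 in each direction), and members near 0 were named. The partner genes were named if they passed at 4 h with either ligand. PSME3, PSME4, PSMG4, PSMD9, PSMD11 and PSMD12, ERAP2, and the partner genes named for not passing were named after their values were seen. The members and gene lists were chosen with earlier results of these data known. Alternatives were a pseudocount of 1, no filter, quantile normalisation, median scaling, a replicate block, only the samples of a comparison, a fold threshold of 1.2 and each replicate left out in turn. The fit was tested on simulated data. Some partner genes are not reported here. Gene positions and pseudogenes came from GENCODE v44 lifted to GRCh37 and figures from matplotlib 3.10.9.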

Additional observations from a re-analysis of the deposited data

Results flagged for a closer look

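NLRC5 was the 1 gene of the members and partner genes whose change from 2 h to 4 h differed between the ligands by the test of that difference. The change with Dex minus that with CpdA was −0.79 ± 0.09 (log2, SE, limma adjusted p = 0.00145, n = 2 per group). NLRC5 was at 3.61 and 3.77 RPKM after 2 h of Dex and 2.53 and 2.60 after 4 h of Dex, and at 3.76 and 3.70 RPKM after 2 h of CpdA and 4.54 and 4.55 after 4 h of CpdA, so that both replicates moved down with Dex and up with CpdA. The call held in all alternative fits run, with values between −0.81 and −0.62. No group had the 4 samples that a check for single outlying samples needs.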

How the results depend on the processing

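No called difference of a member reversed under any alternative. The same held for partner genes against vehicle and for the difference between their changes over time. Partner differences between the ligands at one time, or between 2 h and 4 h, were not refitted. Of the called member differences, 94 refits kept the call and 56 lost it, and of the partner differences that were refitted 151 kept it and 43 lost it. Brackets after a refit give the share of all genes called in the same fit and direction. The number of members higher with Dex at 4 h (3) became 8 under median scaling (12.6%), 6 with the replicate block (10.2%) and 0 with only the samples of the comparison (5.58%). The number lower (1) became 0 under median scaling (12.6%) and 0 with only those samples (8.38%). Both became 0 with a fold threshold of 1.2, which 20.9% of all genes met in either direction. For CpdA at 4 h the 2 higher became 4 under quantile normalisation (9.46%), 9 under median scaling (10.9%) and 4 with the replicate block (7.61%). They became 0 with the fold threshold (13.9% in either direction). The 3 lower with Dex than CpdA at 4 h became 5 under quantile normalisation (18.3%), 1 with only those samples (12.5%) and 0 with the fold threshold (24.2% in either direction). From 2 h to 4 h, the 2 higher with Dex became 0 with only those samples (2.24%) and 0 with the fold threshold (10.2% in either direction). The 4 higher with CpdA became 1 without the filter (2.5%), 11 with only those samples (12.3%) and 0 with the fold threshold (8.24% in either direction). Leaving out 1 replicate gave median log2 differences of the members of −0.06 to −0.006 for Dex at 2 h and −0.02 to 0.07 for Dex at 4 h. They were −0.03 to 0.02 for CpdA at 2 h, 0.04 to 0.08 for CpdA at 4 h and −0.08 to 0.05 for Dex against CpdA at 4 h. From 2 h to 4 h they were 0.01 to 0.11 with Dex and 0.05 to 0.08 with CpdA, and −0.06 to 0.06 for the difference between these changes. Over all genes the medians of these fits lay between −0.06 and −0.005. Such fits have fewer samples, and the share of all genes that passed changed in them too. A lone sample is assumed to vary like the other groups, so calls in such fits are not results about the members alone. The causes were not otherwise tested. Replicate numbers were shared by the groups, and the main fit did not take them as pairs. Over all genes the replicate differences of the groups correlated with a mean r of 0.0544 (−0.0568 to 0.1975 over 10 pairs of groups, 3 above 0.1). Over the members alone every correlation was above 0, from 0.0920 to 0.586. A correlation does not measure an offset common to the members. Their median log2 difference, replicate 1 minus replicate 2, was −0.05 in vehicle and 0.03 to 0.11 in the treated groups. The replicate block allows each gene a single shift shared by all groups, so it cannot take up offsets of opposite direction. In vehicle it is also not separable from the time named in the headers. Although 10 of 10 samples correlated best with their own number, these are 5 group outcomes, because the 2 samples of a group mirror each other. The replicate block left the other counts within 1.5 times. Read depth is known only in relative terms, so counting error could not be given.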

Other observations

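The 47 members lie on 17 chromosomes, with 8 on chromosome 14 and 7 on chromosome 17 (GENCODE v44 lifted to GRCh37). Some of them are close neighbours. PSME1 (chr14:24605372-24608176, plus strand) and PSME2 (chr14:24612571-24616779, minus strand), the subunits of PA28, are less than 5 kb apart. The outer annotated bounds of PSMB8 (chr6:32808494-32812456, minus strand) and PSMB9 (chr6:32811913-32827628, plus strand) overlap. The promoter stretches printed for them (chr6:32844018-32844197 and chr6:32854042-32854221 in GRCh38) do not. PSMB5 (chr14:23485752-23504439, minus strand), expressed in all 10 samples, is near PSMB11 (chr14:23511421-23513269, plus strand), which was at or near 0. GENCODE names at least 1 pseudogene after 17 of the members. Taken over all 47 members, the proteasome genes held between 0.950% and 1.02% of the summed RPKM of a sample, lowest in Dex 2 h replicate 2 and highest in CpdA 4 h replicate 1.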
